A study of Mus musculus with 21 samples.

Results

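Slc9a3, Ano1, Otop2 and Ush1g are 4 mouse genes that hold regions with a different level of DNA methylation in intestinal adenoma and normal intestine. Their members were chosen as every deposited region that overlapped the body of 1 of these genes or the 1000 bp upstream of it in mm9. These were 14 of the 17690 listed windows of 500 bp and 6 of the 13980 regions into which overlapping windows had been merged, called differentially methylated regions (DMRs). Of the 14 windows, 11 were listed as higher in adenoma (hypermethylated) out of 6123, and 3 as lower (hypomethylated) out of 11567. Slc9a3 held 3 hypermethylated windows in 1 DMR. Ano1 held 3 hypermethylated windows in 2 DMRs and 3 hypomethylated windows in 2 DMRs. Ush1g lies inside Otop2 on the other strand, and the same 5 hypermethylated windows, merged into 1 DMR, were counted for both genes. No listed window lay in Otop2 outside the stretch shared with Ush1g. The genes were selected on the measured rpm difference between adenoma and normal tissue in these same 11 libraries, so this difference is described here without a test.

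Methylated DNA was immunoprecipitated with an antibody to 5-methylcytidine and sequenced (MeDIP-seq) in ileum of male C57BL/6J mice aged 15 to 19 weeks. Normal tissue came from 3 Apc wild type mice (B6 normal, B1 to B3) and from 3 Apc-Min/+ mice (APCMin normal, N4 to N6), and 5 adenomas came from Apc-Min/+ mice (Ad4, Ad4-1, Ad5, Ad6 and Ad7). The Min allele is carried in the germline, so normal tissue and adenoma of these mice share it. N4, Ad4 and Ad4-1 came from 1 mouse, N5 and Ad5 from another, and N6 and Ad6 from another, and no normal sample of the mouse of Ad7 was sequenced. All samples were pieces of whole tissue, in which a change in methylation and a change in the mixture of cell types cannot be told apart, and the cell types were not checked, since gene levels were not analysed here. The values are rpm, the mean read coverage of a window scaled to the depth of that library. Between 13878615 and 26297510 reads of a MeDIP library aligned uniquely, and at this depth 1 fragment in a window is worth 0.0228 to 0.0432 rpm, and the 3 input libraries, sequenced without immunoprecipitation (B3, N4 and Ad7), had 3228908 to 5931425 such reads.

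Slc9a3 encodes the sodium-proton exchanger NHE3 of the brush border, which takes up sodium in the small intestine. Ano1 encodes a calcium-activated chloride channel of secretory epithelia and smooth muscle, and Otop2 a proton channel of the otopetrin family. Ush1g encodes the scaffold protein SANS of sensory hair cells, whose loss causes a form of Usher syndrome, a disease of hearing and sight. In vertebrates DNA methylation lies mostly at CpG dinucleotides, and stretches dense in CpG at the 5′ ends of genes are usually free of it in normal tissue.

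A stretch of the reference sequence of the hypermethylated DMRs in Ush1g, at the 5′ end of Ano1 and in Slc9a3, the 3 with the largest change in these genes, is given below from mm9, read 5′ to 3′ on the strand of the gene, with each CpG in capitals. The Ush1g sequence (chr11:115179751-115180050, minus strand) lies wholly in coding exon 2 and holds 20 CpG in 300 bases. The Ano1 sequence (chr7:151924472-151924750, minus strand) lies directly upstream of the most 5′ of the 4 transcript starts inside the DMR and holds 17 CpG in 279 bases. The Slc9a3 sequence (chr13:74258963-74259250, plus strand) begins at the start codon, runs through exon 1 into intron 1 and holds 10 CpG in 288 bases.
Ush1g: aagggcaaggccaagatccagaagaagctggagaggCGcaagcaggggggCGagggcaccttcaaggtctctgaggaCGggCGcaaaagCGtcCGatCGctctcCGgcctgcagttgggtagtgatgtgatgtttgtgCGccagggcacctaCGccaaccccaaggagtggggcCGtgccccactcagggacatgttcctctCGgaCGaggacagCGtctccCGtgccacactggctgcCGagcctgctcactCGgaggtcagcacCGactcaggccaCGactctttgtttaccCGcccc
Ano1: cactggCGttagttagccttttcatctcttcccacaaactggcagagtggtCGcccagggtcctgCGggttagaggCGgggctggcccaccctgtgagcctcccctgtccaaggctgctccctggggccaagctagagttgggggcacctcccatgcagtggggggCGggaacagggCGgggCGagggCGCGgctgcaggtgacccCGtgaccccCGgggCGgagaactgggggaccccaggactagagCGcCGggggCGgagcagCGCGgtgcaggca
Slc9a3: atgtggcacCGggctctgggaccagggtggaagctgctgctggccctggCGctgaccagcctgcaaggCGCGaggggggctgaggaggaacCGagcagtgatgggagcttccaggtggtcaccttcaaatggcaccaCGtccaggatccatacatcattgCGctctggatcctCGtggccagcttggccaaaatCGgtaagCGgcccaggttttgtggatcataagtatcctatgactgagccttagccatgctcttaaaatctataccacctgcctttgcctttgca

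In Slc9a3 the methylation signal at the start of the gene was at most 0.04 rpm in the normal samples in both windows that hold the start of exon 1 and between 0.18 and 0.71 rpm in the adenomas, and in the third window the groups lay closer together. Slc9a3 (ENSMUSG00000036123) lies on chromosome 13 from 74258963 to 74303512 on the plus strand, and its only annotated transcript has 16 exons. The DMR (chr13:74258501-74259500) spans 1000 bp, covers all 196 coding bases of exon 1 and holds 54 CpG. In the window upstream of and over the start of exon 1 (chr13:74258501-74259000, 36 CpG), B1 and B3 were listed at 0 and B2 at 0.03 rpm, while N4, N5 and N6 were all listed at 0. In the same window Ad4 measured 0.28, Ad4-1 0.30, Ad5 0.46, Ad6 0.18 and Ad7 0.35 rpm. Every adenoma thus lay above every normal sample, and the normal signal came from about 1 fragment in 6 libraries against about 47 in 5 adenomas. Scaled to depth this is a ratio of 65.1, with a 95% counting interval of 11.1 to 2625. This and the other counting intervals and floors cover counting error only. The intervals pool the fragments of all libraries of a group and leave out the spread between mice. The windows were listed for this difference in the same libraries, so an interval that excludes 1 is no test of it.

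The middle window of Slc9a3 (chr13:74258751-74259250, 31 CpG), which contains the whole of exon 1, gave the highest adenoma signal of the 3. B1, B2 and B3 measured 0.02, 0.04 and 0.03 rpm, and N4, N5 and N6 0.02, 0.03 and 0.01 rpm. Ad4 measured 0.36, Ad4-1 0.49, Ad5 0.71, Ad6 0.22 and Ad7 0.49 rpm. The lowest adenoma, Ad6, was still above the highest normal sample, and all normal samples lay below the 3 fragments taken as the floor of a library. The adenoma mean was 0.454 ± 0.181 rpm (SD, n = 5) against 0.025 ± 0.0105 rpm in normal tissue (SD, n = 6), about 67 fragments against 5 and a ratio per depth of 18.6 (counting interval 7.57 to 59.0).

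In the window that reaches furthest into intron 1 of Slc9a3 (chr13:74259001-74259500, 18 CpG) the normal signal was higher. B6 normal measured 0.09, 0.11 and 0.13 rpm and APCMin normal 0.08, 0.13 and 0.12 rpm in B1 to B3 and N4 to N6. Ad4 measured 0.27, Ad4-1 0.44, Ad5 0.52, Ad6 0.17 and Ad7 0.43 rpm, and Ad6 came within 0.04 rpm of the highest normal samples. Along the 3 windows the difference was 2.70, 2.68 and 1.31 on the log2(rpm + 0.05) scale, which understates the change of low values, and the first and second of these differed by less than the SD among adenomas. In mean rpm the middle window differed most, by 0.429 against 0.309 upstream and 0.256 downstream. The number of CpG in the windows fell in the same order, and the normal signal increased.

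At the 5′ end of Ano1 the 4 longer coding transcripts with annotated starts at 151924383, 151924448 and 151924471 begin inside a hypermethylated DMR (chr7:151924001-151924750, 44 CpG), in which the normal signal was low, with a mean of 0.0483 rpm against 0.025 rpm in the Slc9a3 DMR. Ano1 (ENSMUSG00000031075) lies on chromosome 7 from 151774454 to 151937879 on the minus strand. Its furthest annotated 5′ end, at 151937879, belongs to a single short transcript of 7 exons, and no listed window lay there. Both windows of the DMR hold the starts of the 4 longer transcripts and the same bases of their first exons. The first window (chr7:151924001-151924500, 31 CpG), which reaches further into intron 1, measured 0.05, 0.03 and 0.04 rpm in B1 to B3. In N4 to N6 it measured 0.06, 0.11 and 0.08 rpm. Ad4 measured 0.25, Ad4-1 0.70, Ad5 0.52, Ad6 0.83 and Ad7 0.70 rpm in it. Ad4 stood well below the other adenomas although above every normal sample, and its level was 2.8 times lower than that of Ad4-1 from the same mouse.

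The second window of the Ano1 5′ DMR (chr7:151924251-151924750, 34 CpG), which extends further upstream of the starts, had 0.07, 0.01 and 0.01 rpm in B1 to B3 and 0.03, 0.06 and 0.05 rpm in N4 to N6. Ad4 measured 0.20, Ad4-1 0.57, Ad5 0.44, Ad6 0.65 and Ad7 0.56 rpm. The order of the adenomas was Ad6, Ad4-1, Ad7, Ad5 and Ad4 in both windows, which overlap by 250 bp and share reads. Over the DMR the adenoma mean was 0.544 ± 0.199 rpm (SD, n = 5) against 0.0483 ± 0.0223 rpm (SD, n = 6), a difference of 2.54 on the log2 scale.

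**Figure D1:**
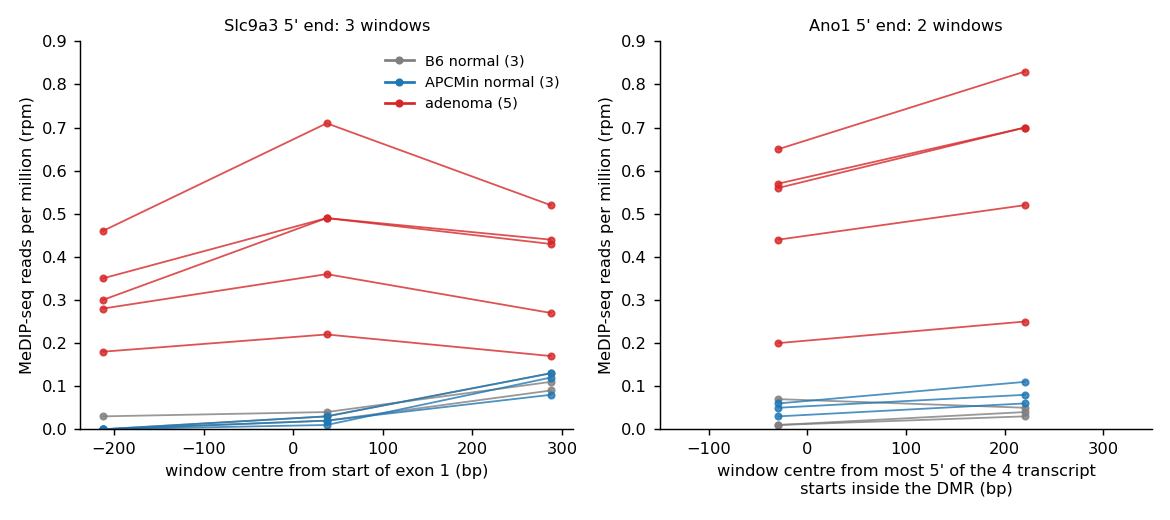
MeDIP-seq signal in rpm (vertical axes) in the listed windows at the 5′ ends of Slc9a3 (left) and Ano1 (right), by distance of the window centre from the start of exon 1 or from the most 5′ of the transcript starts inside the DMR, in bp. Each line is 1 library. In both genes the 5 adenomas lie above the 6 normal samples in every window, and the lowest line is Ad6 in Slc9a3 and Ad4 in Ano1.

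The other 3 DMRs of Ano1 had their centres 52720.5 to 74220.5 bp downstream of the most 5′ of these starts and had smaller changes from a higher normal level. Ano1 thus held DMRs of both directions, and a hypermethylated and a hypomethylated DMR lay 4500 bp apart. The hypomethylated DMR in intron 1 (chr7:151871501-151872000, 11 CpG) measured 0.62, 0.59 and 0.87 rpm in B1 to B3, 0.84, 0.73 and 0.73 rpm in N4 to N6, and 0.37, 0.55, 0.56, 0.60 and 0.59 rpm in Ad4, Ad4-1, Ad5, Ad6 and Ad7. The highest adenoma lay above the lowest normal sample, so the groups overlapped, and adenoma fell by 0.42 on the log2 scale relative to normal tissue.

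The hypomethylated DMR over exon 3 of the longer Ano1 transcripts (chr7:151855001-151855750, 22 CpG) covers 333 coding bases of that exon and the first exon of 2 shorter transcripts, 1 of them coding. Its first window (chr7:151855001-151855500, 13 CpG) had 0.74, 0.88 and 0.96 rpm in B6 normal and 0.79, 0.84 and 0.91 rpm in APCMin normal against 0.48, 0.35, 0.27, 0.64 and 0.48 rpm in Ad4, Ad4-1, Ad5, Ad6 and Ad7. Every adenoma was below every normal sample in this window. The second (chr7:151855251-151855750, 16 CpG) had 0.81, 1.10 and 1.29 rpm in B6 normal and 1.04, 1.08 and 1.12 rpm in APCMin normal against 0.65, 0.53, 0.34, 0.90 and 0.67 rpm in the adenomas. Here Ad6 lay above B1, and the groups overlapped. Over the DMR the 5 adenomas averaged 0.530 ± 0.175 rpm and the 6 normal samples 0.967 ± 0.116 rpm (mean ± SD), so that adenoma fell by 0.86 on the log2 scale.

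The hypermethylated DMR in intron 3 of Ano1 (chr7:151850001-151850500) holds only 7 CpG. B1 to B3 measured 0.38, 0.40 and 0.39 rpm and N4 to N6 0.30, 0.28 and 0.46 rpm, against 0.56, 0.49, 0.56, 0.63 and 0.47 rpm in Ad4, Ad4-1, Ad5, Ad6 and Ad7. The adenomas lay above the normal samples, but Ad7 was only 0.01 rpm above N6. The adenoma mean was 1.47 times the normal mean (0.542 ± 0.0638 against 0.368 ± 0.0671 rpm), a difference of 0.51 on the log2 scale, and the ratio per depth had a counting interval of 1.10 to 2.09.

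**Figure D2:**
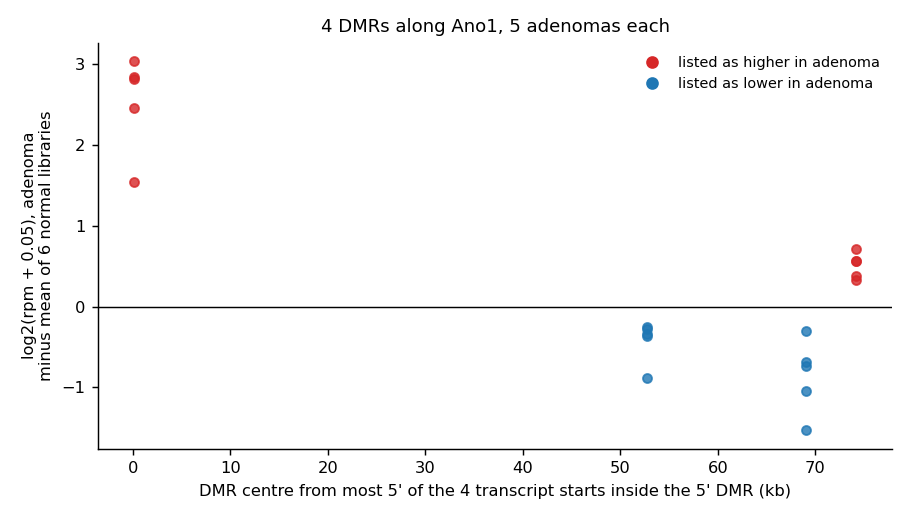
Difference of each of the 5 adenomas from the mean of the 6 normal libraries, in log2(rpm + 0.05) (vertical axis), in the 4 Ano1 DMRs by distance of the DMR centre from the most 5′ of the transcript starts inside the 5′ DMR, in kb. Red points are DMRs listed as higher and blue points DMRs listed as lower in adenoma. The 5′ DMR stands at about 2.54 on average, and the 3 DMRs further into the gene lie between -0.86 and 0.51 on average.

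The DMR shared by Ush1g and Otop2 (chr11:115179251-115180750) was the longest of the 4 genes, with 1500 bp and 80 CpG. Ush1g (ENSMUSG00000045288) lies on chromosome 11 from 115176506 to 115183355 on the minus strand and has 3 exons. Its exon 2, from 115179299 to 115180516, is coding over all 1218 bases and lies wholly inside the DMR. Otop2 (ENSMUSG00000050201) lies from 115168477 to 115193617 on the plus strand, and for it the DMR fell into intron 1 of the longest transcript, its centre 11523.5 bp downstream of the start of that transcript. MeDIP-seq does not keep the strand of a gene, so the signal belongs to both genes alike.

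Along Ush1g from 5′ to 3′ the adenoma signal rose to a peak in the middle of the exon and fell again, while the normal signal fell from the first window to the last. The first window (chr11:115180251-115180750, 11 CpG), which runs from intron 1 of Ush1g into exon 2, measured 0.35, 0.51 and 0.50 rpm in B6 normal and 0.48, 0.44 and 0.28 rpm in APCMin normal. Ad4 and Ad4-1 measured 1.09, Ad5 1.15, Ad6 1.27 and Ad7 0.98 rpm. In this window, the one with the fewest CpG, the adenoma mean was 2.62 times the normal mean.

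The next window of Ush1g (chr11:115180001-115180500, 35 CpG) had 0.39, 0.45 and 0.46 rpm in B6 normal and 0.38, 0.42 and 0.26 rpm in APCMin normal. The adenomas measured 1.76, 2.04, 1.97, 2.07 and 1.75 rpm in the order Ad4, Ad4-1, Ad5, Ad6 and Ad7. The adenomas were closest together here, with a coefficient of variation of 7.99%, and their mean was 4.88 times that of normal tissue.

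The middle window of Ush1g (chr11:115179751-115180250), which has 44 CpG, the most of the 14 windows, also had the highest adenoma signal. B1 to B3 measured 0.28, 0.31 and 0.34 rpm and N4 to N6 0.25, 0.29 and 0.25 rpm. Ad4 measured 1.76, Ad4-1 2.05, Ad5 2.11, Ad6 2.39 and Ad7 1.80 rpm. The means were 2.02 ± 0.256 rpm (SD, n = 5) and 0.287 ± 0.0350 rpm (SD, n = 6), so that the lowest adenoma lay over 1 rpm above the highest normal sample and the mean was 7.05 times higher.

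Both remaining Ush1g windows lay towards the 3′ end of exon 2 and had less signal in either tissue than the middle window. In chr11:115179501-115180000 (34 CpG) B6 normal measured 0.16, 0.17 and 0.20 rpm and APCMin normal 0.24, 0.24 and 0.19 rpm against 1.32, 1.46, 1.68, 1.99 and 1.18 rpm in Ad4, Ad4-1, Ad5, Ad6 and Ad7, a ratio of means of 7.63. In chr11:115179251-115179750 (24 CpG) B6 normal measured 0.04, 0.03 and 0.05 rpm and APCMin normal 0.12, 0.09 and 0.06 rpm against 0.78, 0.73, 0.83, 0.84 and 0.44 rpm. The last window had the lowest signal and the largest ratio of means, 11.1, in Ush1g, and Ad7 was well below the other adenomas in it.

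**Figure D3:**
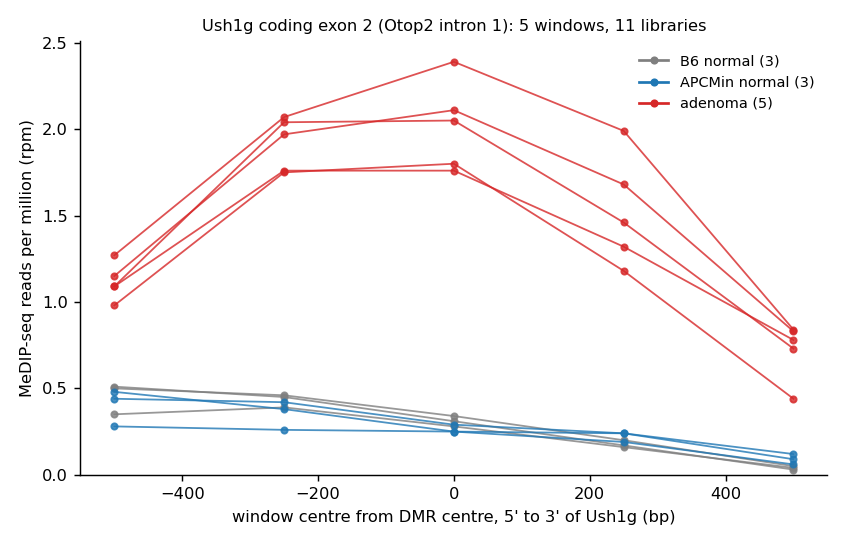
MeDIP-seq signal in rpm (vertical axis) in the 5 windows of the Ush1g and Otop2 DMR, by distance of the window centre from the centre of the DMR in bp, read 5′ to 3′ of Ush1g. Each line is 1 library. The 5 adenomas lie above the 6 normal samples in each window and reach 1.76 to 2.39 rpm in the middle window.

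Adenoma and normal libraries did not overlap in 11 of the 11 hypermethylated windows and in 1 of the 3 hypomethylated windows of the 4 genes. The same was true of 43.6% of all listed hypermethylated windows and 51.6% of all listed hypomethylated windows. The windows had been listed for this contrast, so nothing is read from these counts. The value of a DMR is the median of its windows in each library, so adenoma and normal values can come from different windows. This was so in Slc9a3 and Ush1g, and in Slc9a3 the values of the single adenomas also came from different windows. Among the 5135 hypermethylated DMRs, those of Ano1 (5′ end), Slc9a3 and Ush1g held ranks 4, 5 and 6 by difference on the log2 scale, whose median over all was 0.56. These ranks depend on the constant added before the logarithm. With 0.5 rpm in place of 0.05 the ranks of Ano1, Slc9a3 and Ush1g were 6, 17 and 2 and their differences 0.91, 0.71 and 1.35, and with 0.01 rpm the ranks were 4, 3 and 10 and the differences 3.24, 3.41 and 2.36. By difference of mean rpm the order also turned, with Ush1g at rank 3, Ano1 at 90 and Slc9a3 at 229. No hypermethylated DMR had a lower normal mean than that of Slc9a3, and 0.0779% had a lower one than that of the Ano1 5′ end. The Ush1g DMR was among the 6 longest hypermethylated DMRs. The Ano1 intron 3 DMR, at rank 3302 on the log2 scale, and the Ano1 intron 1 DMR, at rank 8237 of 8845 hypomethylated DMRs, were below the middle of their lists. The Ano1 exon 3 DMR was at rank 1631 of these.

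The 3 DMRs that changed most were also rich in CpG, with 54 in Slc9a3, 44 in the 5′ DMR of Ano1 and 80 in Ush1g, against a median of 8 over all hypermethylated DMRs. Per window of the same length, those of Slc9a3 held 18 to 36, those of the Ano1 5′ end 31 and 34 and those of Ush1g 11 to 44 CpG, against a median of 8 over all hypermethylated windows. The 4 remaining windows, all in Ano1, held 7 to 16. An antibody to methylated cytosine recovers more DNA from a window the more methylated CpG it holds, so rpm compares tissues within a window rather than the share of methylated CpG between windows.

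The adenomas did not stand in the same order in the 6 DMRs. Over the DMR values, the deposited median of the windows, Slc9a3 measured 0.28, 0.44, 0.52, 0.18 and 0.43 rpm in Ad4, Ad4-1, Ad5, Ad6 and Ad7, with Ad6 the lowest. The Ano1 5′ end measured 0.23, 0.64, 0.48, 0.74 and 0.63 rpm in the same order, with Ad6 the highest and Ad4 the lowest. Ush1g measured 1.32, 1.46, 1.68, 1.99 and 1.18 rpm, with Ad6 again the highest and Ad7 the lowest. Ad6 also had the highest value of the adenomas in the other 3 Ano1 DMRs. The highest adenoma was 2.89 times the lowest in Slc9a3, 3.22 times in the Ano1 5′ DMR and 1.69 times in Ush1g. Within the windows of Slc9a3 this ratio was 2.56, 3.23 and 3.06, from the most upstream window on.

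The spread among adenomas in Slc9a3 and the Ano1 5′ end was larger than in most hypermethylated DMRs. Their coefficients of variation of 37.1% and 36.5% were exceeded by 1.75% and 2.10% of all hypermethylated DMRs, and that of Ush1g, 20.9%, by 24.9%, while the median was 15.9%. Within the windows of Slc9a3 the coefficient was 32.6%, 40.0% and 38.9%. Such a spread includes counting error, and whether it exceeds that error was not tested. The SD among adenomas was divided by the SD expected from the fragments of a single window alone. The ratio was 1.58 and 1.38 in the windows of the Ano1 5′ end and 0.997, 1.47 and 1.28 in those of Slc9a3. In Ush1g it ran from 0.546 to 1.41, with 0.982 in the middle window. The Ush1g window with 1.41 (chr11:115179501-115180000) held the adenoma values of the DMR. Of the 2 adenomas of 1 mouse, Ad4-1 was 2.78 times as high as Ad4 in the Ano1 5′ DMR, 1.57 times in Slc9a3, 1.49 times in the intron 1 DMR of Ano1 and 1.11 times in Ush1g. In Slc9a3 the DMR values of Ad4 and Ad4-1 came from different windows. Within its windows the ratio was 1.07, 1.36 and 1.63. In the intron 3 and exon 3 DMRs of Ano1, Ad4-1 was lower, at 0.875 and 0.786 times the level of Ad4.

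Within the mice from which both tissues were sequenced, each adenoma differed from its own normal sample in the listed direction in all 6 DMRs. In every DMR but that of Ano1 intron 1 the adenoma and normal libraries did not overlap. Each pair there had to go in the listed direction, so only the sizes of the differences are described. On the log2 scale Slc9a3 was higher in adenoma by 2.24 (Ad4), 2.81 (Ad4-1), 2.83 (Ad5) and 1.94 (Ad6). The Ano1 5′ DMR was higher by 1.64, 2.94, 2.03 and 2.84, and the Ush1g DMR by 2.19, 2.33, 2.35 and 2.77 in the same order. The Ush1g differences were the closest together of the 3. The exon 3 DMR of Ano1 fell by 0.67, 0.99, 1.53 and 0.38, the intron 1 DMR by 1.08, 0.57, 0.35 and 0.26, and the intron 3 DMR was higher by 0.80, 0.63, 0.89 and 0.42. The adenoma values of the Ush1g DMR were those of chr11:115179501-115180000, and its normal values those of chr11:115179751-115180250. Within these windows the mean adenoma minus normal differences were 2.64 and 2.62, against 2.21 for the DMR. In the middle window of Ush1g the paired differences were 2.59, 2.81, 2.67 and 3.02. The Slc9a3 DMR stood at 2.43, against 2.70, 2.68 and 1.31 in its windows. The sample titles number the MeDIP libraries in 4 series, without saying what a series is, and only series 4 held more than 1 sample of each tissue (B1, B2 and N4, with Ad4 and Ad4-1). Within series 4 alone the difference was 2.40 in Slc9a3, 2.31 in the Ano1 5′ DMR and 2.13 in Ush1g, and 0.49, -0.79 and -0.53 in the intron 3, exon 3 and intron 1 DMRs of Ano1.

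**Figure D4:**
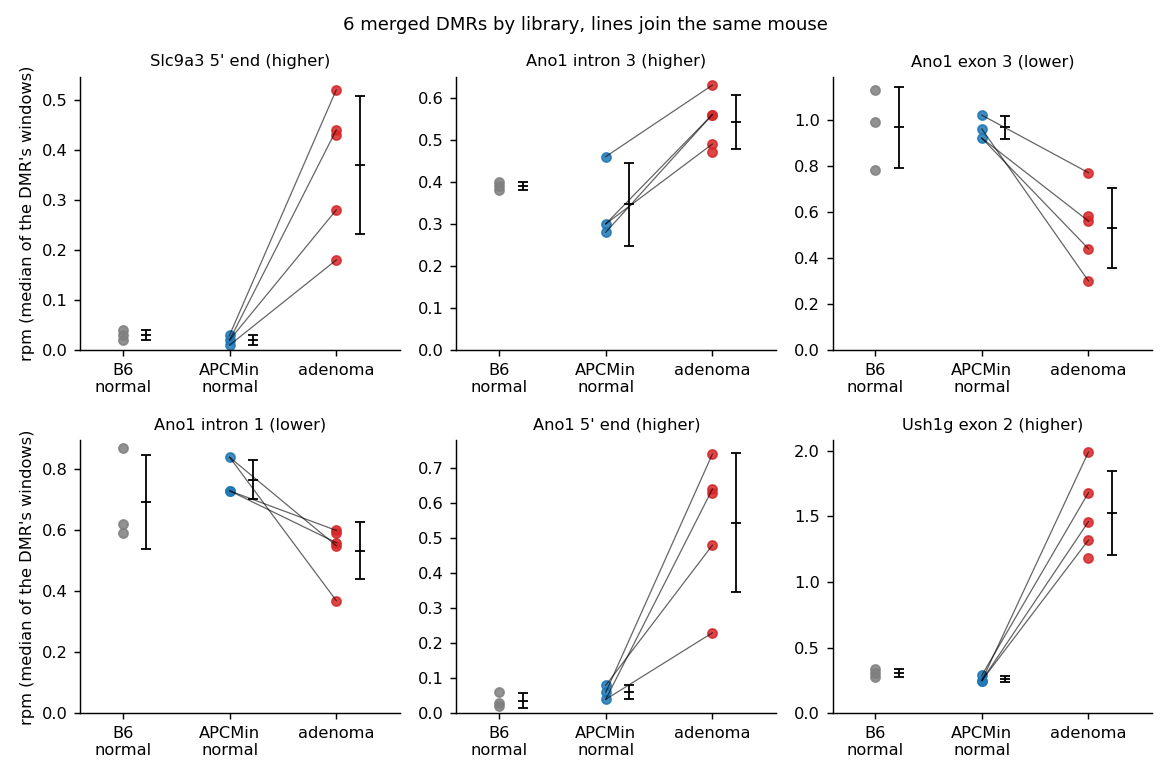
Deposited rpm of each of the 6 merged DMRs (vertical axes), the median of its windows in each library, in B6 normal, APCMin normal and adenoma. Points are libraries, bars beside them the mean and SD of the group, and lines join the normal sample and the adenomas of the same mouse, with 2 adenomas for animal 4. All lines rise in the 4 DMRs listed as higher and fall in the 2 listed as lower in adenoma, the directions for which these libraries were used to list them.

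It was tested whether normal tissue of Apc-Min/+ mice already differed from that of wild type mice in these genes. This contrast itself had not been used to list the regions or to choose the genes. The listing did set the same normal samples, pooled, against the adenomas, so the shares below hold for listed windows only. Most APCMin normal libraries came from a library series that held no B6 normal library, and no term for series was fitted. Genotype and library series are thus partly mixed in this contrast, and a difference between the groups cannot be assigned to genotype alone. Whether series contributed was not tested. With limma on log2(rpm + 0.05) over all 17690 windows, none of the 14 windows passed an adjusted p of 0.05 (all at 1.00 to 3 significant digits), against 0% of all windows. Without adjustment 2 of the 14 had a p under 0.05, against 4.67% (826 windows) of all. These were the first window of the Ano1 5′ DMR, 0.04 ± 0.01 rpm in B6 and 0.0833 ± 0.0252 rpm in APCMin normal (SD, n = 3 each), and the last window of Ush1g, 0.04 ± 0.01 and 0.09 ± 0.03 rpm. In both all 3 APCMin samples lay above all 3 B6 samples, as APCMin and B6 samples did without overlap in 8.26% of all windows, and the levels were a few fragments per library. On the log2 scale APCMin normal was higher by 0.56 (95% interval 0.12 to 0.99) in Ano1 and by 0.62 (0.18 to 1.07) in Ush1g before adjustment for the number of windows. An exact permutation test of 3 against 3 samples, two-sided, cannot go below 0.1, and both windows had this p.

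The other 12 windows had differences between -0.28 and 0.34 on the log2 scale, with intervals that included 0. In the middle windows of Slc9a3 and Ush1g the intervals ran from -0.62 to 0.23 and from -0.60 to 0.20. Of the 14 windows 6 were higher and 8 lower in APCMin normal, and the median size of the difference was 0.20 against 0.15 over all windows. The p-values and intervals come from 3 mice per group, and limma draws the variance of each window towards that of all listed windows. They thus rest only in part on the spread between the mice in the window itself.

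**Figure D5:**
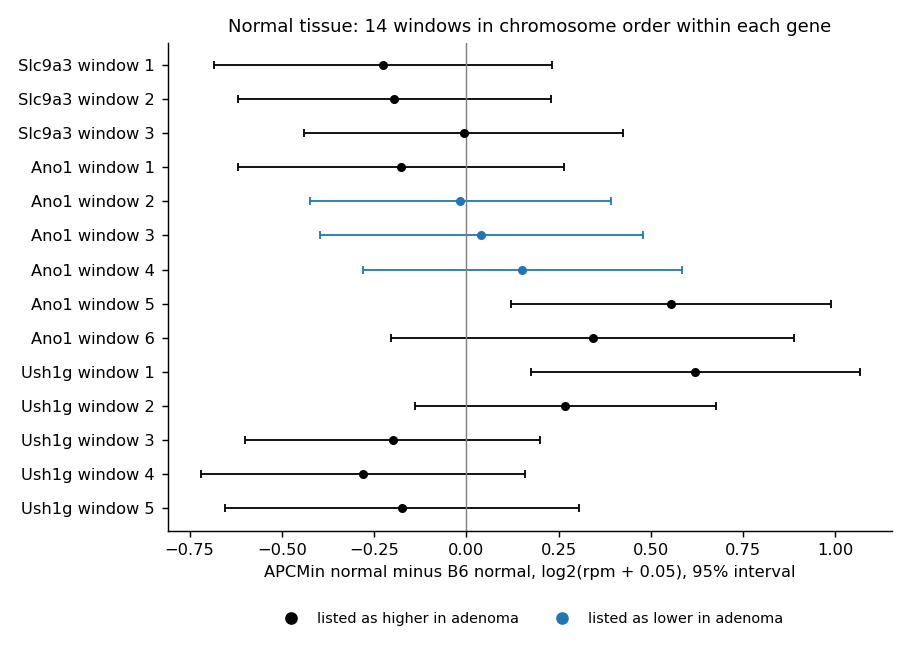
Difference between APCMin normal and B6 normal tissue (horizontal axis, log2(rpm + 0.05)) in the 14 windows, numbered in chromosome order within each gene, with the limma 95% interval. Black points are windows listed as higher and blue points windows listed as lower in adenoma. The intervals of Ano1 window 5 and Ush1g window 1 lie above 0 before adjustment, and the others include 0.

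The input libraries measure the recovery of a window without the antibody, with 1 library for each of the 3 groups and so without a test. In the middle window of Ush1g the input measured 0.09 rpm in B3, 0.17 in N4 and 0 in Ad7, in the middle window of Slc9a3 0.28, 0.23 and 0.19 rpm, and in the first window of the Ano1 5′ DMR 0, 0 and 0.10 rpm. In Slc9a3 the input of B3 and N4 was above the MeDIP signal of the same samples, 0.03 and 0.02 rpm. At the input depth 3 fragments are worth 0.303 to 0.557 rpm, so all these input values stand for fewer than 3 fragments. The median input over all hypermethylated windows was 0.12 to 0.15 rpm.

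Outside the 4 genes the next listed windows lay far from most of them. The nearest hypermethylated window was 181963 bp from Slc9a3 and 156622 bp from Ano1, and the nearest hypomethylated window 436463 and 26122 bp. Beside Otop2 the nearest was 12134 bp away, in the neighbouring gene Otop3, which encodes another proton channel of the family. Otop3 held a hypermethylated DMR of 29 CpG (chr11:115205751-115206500) with 1.06 ± 0.102 rpm in adenoma and 0.717 ± 0.165 rpm in normal tissue. It also held 2 hypomethylated DMRs within 1500 bp of it, with 0.108 ± 0.0705 against 0.252 ± 0.0605 rpm and 0.316 ± 0.111 against 0.483 ± 0.104 rpm. In all 3 the adenoma and normal libraries overlapped. The Otop3 hypermethylated DMR was 0.55 higher on the log2 scale, near the median of all.

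Genes related to the 4 by family or by role in ion transport were put into lists by their known function, and 62 of 69 symbols were found in the annotation. Of these 62 genes, members included, 25 held a hypermethylated window in the body or the 1000 bp upstream and 18 a hypomethylated one, 10 held both and 29 neither. Among all 37310 annotated genes the shares were 7.33% and 9.6%. The median length of the 62 genes was 41478 bp and that of all genes 5361.5 bp, and a longer gene holds more windows, so the shares cannot be compared directly. With windows counted only from 1000 bp upstream to 500 bp downstream of the furthest annotated 5′ end of a gene, Slc9a3 was the only one of the 62 with a hypermethylated window. The Ano1 5′ DMR is left out by this count, since it lies over the starts of 4 transcripts but not over the furthest annotated end.

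Among the other sodium-proton exchangers, Slc9a8 held a hypermethylated DMR with 0.310 ± 0.0485 rpm in adenoma and 0.223 ± 0.0393 rpm in normal tissue. Slc9a2 and Slc9a4 held none. Among the factors that bind and regulate NHE3, Slc9a3r1 held a hypermethylated DMR (0.266 ± 0.0607 against 0.125 ± 0.0513 rpm), Pdzk1 1 of each direction and Ezr, the membrane linker ezrin, a hypomethylated one (0.440 ± 0.161 against 0.808 ± 0.172 rpm). Of 10 anoctamins 6 held a hypermethylated and 5 a hypomethylated window. Ano6, the scramblase, held hypomethylated windows alone (0.106 ± 0.0757 against 0.287 ± 0.0812 rpm in the DMR at chr15:95633501-95634250).

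Of the 10 annotated Usher proteins 6 held a hypermethylated window, among them Myo7a, a myosin of hair cells, at a high level in both tissues (2.22 ± 0.242 against 1.59 ± 0.453 rpm). Ush1c, the scaffold harmonin, which the intestinal brush border also contains, had 0.354 ± 0.0336 against 0.235 ± 0.0561 rpm. Of 12 genes of chloride and bicarbonate transport, Cftr, Slc12a2 and Slc4a4 held hypermethylated windows and Clcn2 a hypomethylated one. Of 10 genes of sodium and potassium transport 3 held each. Outside the 4 genes the largest difference in a hypermethylated DMR of the lists was 0.95 on the log2 scale, in the potassium channel gene Kcnq1, against 2.21 to 2.54 in Slc9a3, the Ano1 5′ end and Ush1g.

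The profile over the 11 MeDIP libraries most like that of a DMR was found with Pearson's r on log2(rpm + 0.05) among the other 5134 hypermethylated DMRs. These libraries were also used to list the DMRs, so r is high for most of them, with medians of 0.75 for Slc9a3, 0.73 for Ano1 and 0.76 for Ush1g. For Slc9a3 the most alike was the DMR of Onecut3 (r = 0.98), a transcription factor gene, at 0.05, 0.07, 0.06, 0.02, 0.02 and 0.01 rpm in B1 to B3 and N4 to N6 and 0.38, 0.72, 0.64, 0.37 and 0.43 rpm in the adenomas, followed by L3mbtl3 (r = 0.98) and a DMR of chromosome 16 in no gene (r = 0.97). For the Ano1 5′ DMR they were Vdr, the vitamin D receptor (r = 0.96), a DMR of chromosome 5 in no gene (r = 0.95) and Zfp608 (r = 0.95). For Ush1g they were a DMR of chromosome 9 in no gene (r = 0.98), Onecut3 (r = 0.96) and Sema4b (r = 0.96). Onecut3 thus stood among the 3 most alike of both Slc9a3 and Ush1g.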

How the data were processed

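The authors aligned the reads to mm9 with Bowtie 0.12.5, kept unique hits, extended them to 300 bp and averaged the coverage of each 500 bp window, a new window beginning every 250 bp. The deposited values are rpm, divided by the authors by the uniquely aligned reads of each library and written with 2 decimals. The authors listed windows by a rank sum test, a ratio of group means and a minimum mean, and merged overlapping windows. In each of the 470 merged regions of at least 3 windows, the deposited rpm was the median of its windows within 0.01 rpm. Columns with the authors' ratios, p-values, means and variances were not used. Windows of the genome outside the lists were not analysed here. The RNA samples were not used here.

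The rpm values were analysed on the log2(rpm + 0.05) scale with Python 3.11.15 (numpy 2.4.6, scipy 1.17.1), and genes and sequence came from gencode vM1 on NCBIM37, the same build as mm9. All 31670 listed regions lay inside its chromosomes. Depths were the library totals of uniquely aligned reads. Fragments of a window were taken as the reads behind an rpm value times 500/300 and as independent, and the interval of a ratio of fragments is an exact conditional 95% interval. APCMin normal and B6 normal were compared with limma 3.58.1, with Benjamini-Hochberg adjustment over all 17690 windows. On simulated data for this contrast with 200 windows changed by 2 on the log2 scale, 98.5% were found. The changed windows all had a normal mean of at least 0.25 rpm, and smaller differences were not simulated. The share found thus does not cover the windows of Slc9a3, of the Ano1 5′ end and towards the 3′ end of Ush1g exon 2, whose normal means were lower. N4, N5 and N6 share mice with Ad4 and Ad4-1, Ad5 and Ad6 according to the labels. Deviations from group means over all DMRs had r between -0.05 and 0.03 in these 4 pairs and between -0.03 and 0.07 in the 11 pairs of different mice. No 2 libraries had the same rpm in more than 5.15% of DMRs.

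All members and gene lists were chosen with earlier results of these data known. The regions named were every listed region of the 4 genes, for Slc9a3, Ano1 and Ush1g the 3 DMRs of the same direction most correlated with the longest DMR, and genes of the lists with a listed window. Alternatives were the pseudocount, leaving out each sample, each normal group alone, library series 4 alone, a fit with the animal as a block, the mean of windows in place of the median, a minimum level, an exact permutation test, ties and the definition of a promoter. The result of 1 gene of the lists is not reported here.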

Additional observations from a re-analysis of the deposited data

Results flagged for a closer look

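The highest or lowest sample of 28 groups (14 windows, 5 adenomas or 6 normal samples each) was set against the gap that Dixon's test allows, which chance exceeds in about 1 in 20 groups. It did so in 3. In the most upstream window of Slc9a3, B2 had 0.03 rpm, about 1 fragment, where the other 5 normal samples were listed at 0. In the intron 1 window of Ano1, Ad4 had 0.37 rpm and the next adenoma 0.55 rpm. In the last window of Ush1g, Ad7 had 0.44 rpm and the next adenoma 0.73 rpm.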

How the results depend on the processing

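The difference between adenoma and normal tissue kept its direction in each of the 114 values obtained for the 6 DMRs under the alternatives, and 106 of these moved by less than the spread between samples. The groups did not overlap in any of these DMRs but that of Ano1 intron 1. There, leaving out samples, using 1 normal group or changing the pseudocount could not turn the direction, so nothing is read from its being kept. With a pseudocount of 0.5 rpm it was 0.71 in Slc9a3, 0.91 in the Ano1 5′ DMR, 0.26 in its intron 3, -0.52 in its exon 3 and 1.35 in Ush1g, and with 0.01 rpm 3.41 in Slc9a3 and 3.24 in the Ano1 5′ DMR, since the normal level there is near 0 and a larger or smaller constant lowers or raises the log2 value by construction. With the replicate block over animals 4, 5 and 6 (paired samples) it was 2.44 in Ush1g and 2.44 in Slc9a3, against 2.39 and 2.46 in the same samples without it, an alternative chosen after seeing the data. Leaving out each sample gave 2.30 to 2.62 in Slc9a3, 2.42 to 2.79 in the Ano1 5′ DMR, 0.45 to 0.57 in intron 3, -0.997 to -0.690 in exon 3, -0.48 to -0.31 in intron 1 and 2.11 to 2.29 in Ush1g. Windows without overlap were 12 to 13 of 14. With all samples the share was 43.6% of all listed hypermethylated and 51.6% of all listed hypomethylated windows. The shares under the alternatives were not computed, and nothing is read from these counts. Between APCMin normal and B6 normal 1 of all windows passed with a pseudocount of 0.01 rpm and 0 in the other alternatives, none of them in the 4 genes. With 1000 bp upstream to 500 bp downstream of the 5′ end in place of the whole gene, 1 gene of the related lists held a hypermethylated and 0 a hypomethylated window. Depth limits the windows in which every normal library holds fewer than 6 fragments, which are the 3 of Slc9a3, both of the Ano1 5′ end and the last of Ush1g.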
